A study of Mus musculus with 12 samples.

Results

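Libraries of single-housed mice labelled Nptx2 KO were compared with libraries of single-housed wild-type mice, gene by gene, in ribosome-associated RNA of parvalbumin interneurons. The comparison used 6 of the 12 libraries of the series, 3 per genotype, and the genes described were those with a log2(FPKM + 1) of at least 1 in at least 3 of the 12 libraries, which were 12716 of the 13190 deposited genes. All mice were on the C57BL/6 background and carried PV-Cre k/+ and RiboTag k/k, so that Cre expressed from the parvalbumin locus switched on a tagged ribosomal protein in the cells that use that locus, wild type included. RNA bound to the tagged ribosomes was pulled down from cortex. After weaning the mice of these groups were kept alone for at least 4 weeks, which the labels call social stress, while the group-housed wild-type and labelled KO mice, also 3 libraries each, were kept together for as long.

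Nptx2 encodes neuronal pentraxin 2, an activity-induced secreted protein that gathers AMPA-type glutamate receptors at excitatory synapses. In the cortex it is released largely by pyramidal cells and acts on synapses that they form on parvalbumin interneurons, fast-spiking GABAergic cells that restrain pyramidal firing. The comparison therefore reads, in isolated animals, the RNA being translated in cells that receive the protein.

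The deposited values were quantile normalized, so every library sums to 412903 FPKM and the depth of each is unknown. Pearson correlations between libraries of a group were 0.982 to 0.986 and between groups 0.981 to 0.985. Libraries are named by genotype, housing and barcode, since the columns carry no replicate numbers. Values of single libraries are given in a fixed order, for single-housed wild type first TGACCA, then ACAGTG and last GCCAAT, and for labelled KO first CAGATC, then CTTGTA and last AGTCAA. Pvalb, the defining marker of the targeted cells, stood at 9.99, 10.17 and 10.12 in single-housed wild type and at 10.28, 9.65 and 9.85 in the labelled KO libraries (log2(FPKM + 1), as are all levels below). The groups overlapped, with a difference of -0.17 ± 0.13 (log2, labelled KO minus wild type, ± SE; limma adjusted p = 0.743). In a pulldown from tissue, fewer cells of a type and less RNA per cell cannot be told apart. Nptx2 itself (GRCm38 chromosome 5, 144545902 to 144557478, plus strand) was at 2.41, 2.41 and 2.23 in wild type and at 2.68, 2.43 and 2.54 in the libraries labelled KO. It was not lower in them but slightly higher without overlap (+0.19 ± 0.12, adjusted p = 0.697). Since no source used here says which exons were deleted, genotypes are taken from the labels.

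Libraries stood apart in 2 ways that crossed the comparison. Ddx3y, transcribed from the Y chromosome, was at 3.21, 3.53 and 3.53 in single-housed wild type, at 3.62 and 3.45 in the labelled KO libraries CTTGTA and AGTCAA, and listed at 0 in CAGATC and in all 6 group-housed libraries. Its difference was -1.07 with all 6 libraries, 0.11 without CAGATC and -3.42 without CTTGTA and AGTCAA, where it passed (adjusted p = 7.06e-06). CTTGTA and AGTCAA, but not CAGATC or any single-housed wild-type library, also had high levels of ATF4 target genes, whose values are given with that list. The part of either split in the results below was not tested, and values without CAGATC, or without CTTGTA and AGTCAA, are given beside the genes named here whose call they changed. In the latter case a single labelled KO library is left, which is assumed to vary like the other groups.

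In all, 5 genes passed an adjusted p of 0.05 in single housing, 1 higher and 4 lower in the libraries labelled KO (limma with Benjamini-Hochberg adjustment over 12716 genes; 0.0393% of genes, 0.00786% higher and 0.0315% lower). They were Ccdc71, named for a coiled-coil domain in its product, Fhdc1, whose product is a formin that shapes microtubules and actin, and the pseudogenes Gm12751, Hmgb1-ps1 and 2700099C18Rik. An unadjusted p under 0.05 was reached by 1008 genes (7.93%), 517 higher (4.07%) and 491 lower (3.86%), and 49.1% of all genes had a difference above 0. The authors' deposited table calls the same 5 genes, with 1025 at an unadjusted p under 0.05.

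Ccdc71 (ENSMUSG00000049305, chromosome 9, 108460527 to 108465938, plus strand) was at 3.94, 3.94 and 3.90 in single-housed wild type and at 1.56, 2.32 and 1.59 in the labelled KO libraries. The groups did not overlap, and the 3 labelled KO libraries also lay below all 6 group-housed libraries, which ran from 3.76 to 3.94. The mean level fell from 3.92 ± 0.02 to 1.82 ± 0.43 (SD, n = 3 libraries each), or from 14.2 to 2.54 FPKM. The difference was -2.10 ± 0.17 (adjusted p = 0.00185), and in group housing it was 0.00 ± 0.17. The call was lost when only the 6 single-housed libraries were fitted (adjusted p = 0.0606).

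Fhdc1 (ENSMUSG00000041842, chromosome 3, 84442198 to 84480429, minus strand) was at 0.92, 0.91 and 1.04 in single-housed wild type and at 1.90, 1.75 and 1.76 in the labelled KO libraries. Here the wild-type group was the one that stood apart, since the 6 group-housed libraries were at 1.70 to 1.99, around the labelled KO values. The difference in single housing was +0.85 ± 0.08 (0.942 against 2.49 FPKM, adjusted p = 0.00287), and in group housing +0.16 ± 0.08. The rise passed in each alternative in which the gene was tested, including without CAGATC, the single-housed library with no Y-linked signal (+0.80, adjusted p = 0.0127). The gene 2700099C18Rik had the reverse order, with 1.46, 1.30 and 1.75 in wild type, 0.60, 0.42 and 0.45 in labelled KO, and 0.29 to 0.70 in group housing. Its labelled KO values were near the floor (0.404 FPKM). Only the single-housed wild-type libraries reached the filter's log2 value of 1, so 2700099C18Rik was tested solely through the group in which it was high. It fell by 1.01 ± 0.12 (log2, adjusted p = 0.0184), and lost the call in 6 of the 12 alternatives in which it was tested, among them without TGACCA (adjusted p = 0.0683), CTTGTA (0.0842), AGTCAA (0.104) or both of the last (0.267) and on the compared groups alone (0.191).

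**Figure D1:**
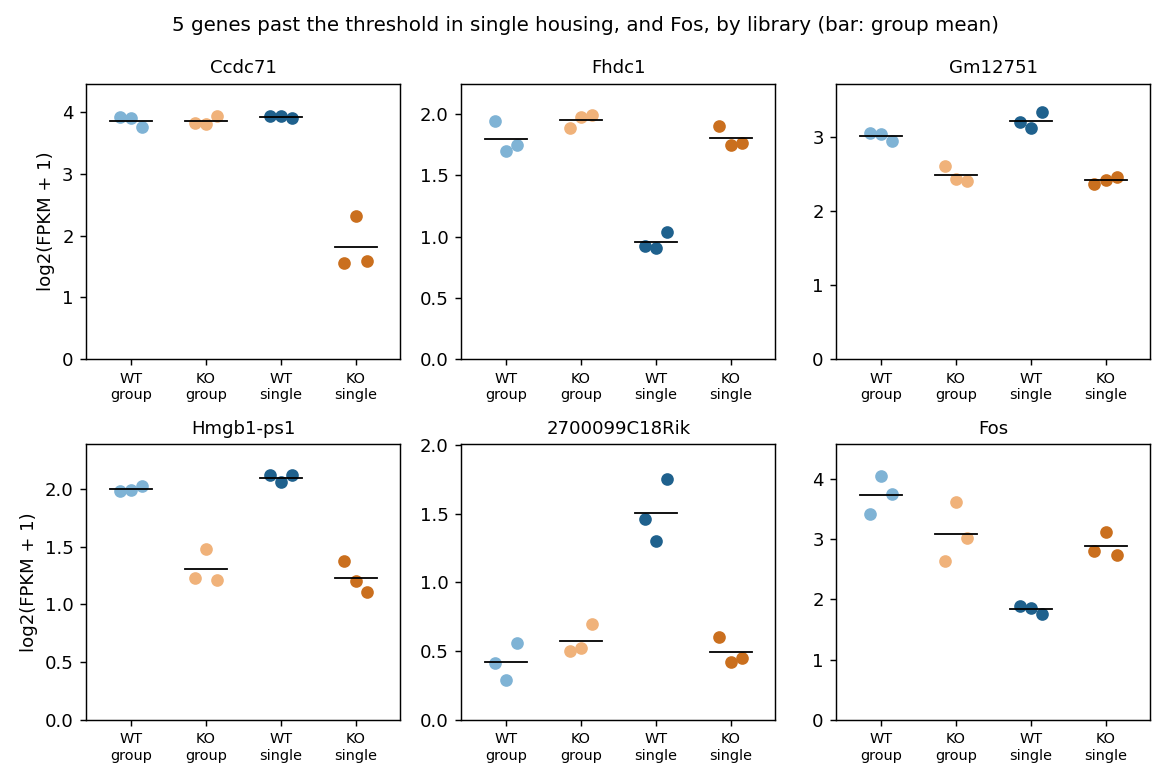
Level (log2(FPKM + 1), axis from 0) of the 5 genes that passed in single housing and of Fos, with 1 point per library and a bar at each group's mean (3 libraries per group). Ccdc71 is low in the single-housed libraries labelled KO (1.56 to 2.32), Fhdc1 and Fos are low in single-housed wild type, and Gm12751 and Hmgb1-ps1 are low in libraries labelled KO under either housing.

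Gm12751 and Hmgb1-ps1 followed genotype under both housing conditions. Gm12751 was at 3.20, 3.12 and 3.33 in single-housed wild type and at 2.36, 2.41 and 2.46 in the labelled KO libraries, and in group housing at 2.94 to 3.05 and 2.40 to 2.60. Its difference was -0.81 ± 0.07 in single housing (adjusted p = 0.00287) and -0.53 ± 0.07 in group housing (adjusted p = 0.0976). Hmgb1-ps1 was at 2.12, 2.06 and 2.12 against 1.38, 1.20 and 1.11, and in group housing at 1.98 to 2.03 against 1.21 to 1.48. It fell by 0.87 ± 0.09 in single housing (adjusted p = 0.00522), with -0.69 ± 0.09 in group housing (adjusted p = 0.0976), and its call was lost on the compared groups alone (0.0606) and without CTTGTA and AGTCAA (-0.72, adjusted p = 0.088). All 12 libraries fell on the side of their genotype label for both genes.

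Both are processed pseudogenes, copies of spliced messenger RNA put back into the genome, and their sequences are shown because reads from such a copy and from its parent gene are hard to tell apart. Gm12751 (chromosome 4, 34354043 to 34354423) matched Polr1d, a subunit shared by RNA polymerases I and III, at 381 of 381 bases. Hmgb1-ps1 (chromosome 11, 41141763 to 41142396) was 96.0% identical to Hmgb1, a chromatin protein, over its whole length. Both parent genes lie on chromosome 5 within 5 Mb of Nptx2, with starts 2.53 Mb (Polr1d) and 4.5 Mb (Hmgb1) from its start. The lines give 60 bases of each pair 5′ to 3′ from the GENCODE M21 transcripts, on the transcribed strand, with bases that differ within the pair in capitals.
Gm12751: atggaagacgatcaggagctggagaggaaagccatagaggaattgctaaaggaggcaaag
Polr1d: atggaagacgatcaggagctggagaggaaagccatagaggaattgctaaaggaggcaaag
Hmgb1-ps1: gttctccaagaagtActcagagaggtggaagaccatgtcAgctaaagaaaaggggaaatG
Hmgb1: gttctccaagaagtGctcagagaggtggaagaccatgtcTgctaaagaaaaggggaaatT
The first pair holds 0 differences in this stretch and the second pair 3. The values of these pseudogenes are therefore uncertain as to which gene the reads came from.

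The parent genes did not pass. Polr1d was at 4.69, 4.76 and 4.83 in wild type and 4.83, 4.88 and 4.93 in labelled KO, a difference of +0.12 ± 0.06 (adjusted p = 0.666). Hmgb1 was at 4.38, 4.29 and 4.42 against 4.05, 4.42 and 4.19 (-0.15 ± 0.20, adjusted p = 0.864). In group housing Polr1d differed by -0.13 ± 0.06 with overlap, and Hmgb1 by -0.50 ± 0.20, lower without overlap in the libraries labelled KO. Other Hmgb1 copies, named after their values were seen, moved in either direction: Hmgb1-ps7, 98.6% identical to Hmgb1, had +0.54 ± 0.10 and Gm13577, 99.5% identical over its aligned part, had -1.03 ± 0.23, neither past the threshold (adjusted p = 0.241 and 0.53). 2700099C18Rik aligned to Ndc80, a kinetochore gene, over 56.2% of its length at 92.7% identity.

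Among named protein-coding genes outside the 5, the 12 with the smallest p in each direction missed the threshold (adjusted p of 0.132 or more). Genes with higher values in the labelled KO libraries included activity-induced transcription factors (Fos, Egr1), neuropeptides (Sst, Tac1), the transcriptional repressor Cic, the splicing factor Srsf10 and the growth factor gene Fgf1. Those with lower values included Kdm1a, a histone demethylase, Atg7, which primes autophagosome formation, Trmu, which modifies mitochondrial tRNA, Birc6, a ubiquitin-conjugating inhibitor of apoptosis, Exoc2, an exocyst subunit, and Dmd, which encodes dystrophin.

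Cic was at 2.89, 2.88 and 2.92 in wild type and at 3.62, 3.69 and 3.71 in the libraries labelled KO, without overlap (+0.78 ± 0.13, adjusted p = 0.177). Its group-housed values ran from 2.88 to 3.63, with -0.29 for the group-housed genotype difference. Kdm1a was at 5.10, 4.99 and 5.13 against 4.70, 4.75 and 4.80 (-0.33 ± 0.05, adjusted p = 0.132), below all 9 other libraries. Atg7 was at 3.46, 3.43 and 3.33 against 2.71, 3.06 and 2.92 (-0.51 ± 0.09, adjusted p = 0.177), again with the single-housed labelled KO libraries below every other library, and it passed without CTTGTA and AGTCAA (-0.70, adjusted p = 0.0287). Trmu was at 3.80, 3.66 and 3.65 against 3.39, 3.20 and 3.13 (-0.47 ± 0.08, adjusted p = 0.229), with the group-housed libraries at 3.03 to 3.41, so that wild type stood apart. Srsf10 was at 2.36, 2.40 and 2.60 against 2.93, 3.12 and 3.17 (+0.62 ± 0.12, adjusted p = 0.272), with the single-housed wild-type libraries below all the others.

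Itgbl1, which encodes an integrin beta-like protein, had the widest gap among these 24. It was at 1.43, 1.40 and 1.51 in single-housed wild type and at 0.09, 0.12 and 0.08 in the labelled KO libraries (-1.35 ± 0.28, adjusted p = 0.381). In group housing it was at 1.59, 1.47 and 1.68 in wild type and at 0.12, 1.51 and 1.29 in the libraries labelled KO, so that 4 of 6 labelled KO libraries and 0 of 6 wild-type libraries were low. On the compared groups alone it passed (adjusted p = 0.0125), as did Cic (0.013) and Egr1 (0.0442). The gene calls there rest on the spread of 6 libraries.

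Across the 29 genes called or named by rank, single-housed wild type lay apart from the other 9 libraries for 20 and the single-housed libraries labelled KO for 5. These 29 were chosen by p in this same comparison, so their counts cannot be set against the shares of all genes. Over all 12716 genes, the 3 single-housed wild-type libraries lay above or below all other 9 for 475 genes (3.74%, 222 above and 253 below). The single-housed labelled KO libraries did so for 68 genes (0.535%), group-housed wild type for 115 (0.904%) and group-housed labelled KO for 69 (0.543%). Single-housed wild type was also the only group in which all 3 libraries had Y-linked signal and the only one with no library high in ATF4 target genes, so that housing, genotype and these splits cannot be told apart in that count.

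**Figure D2:**
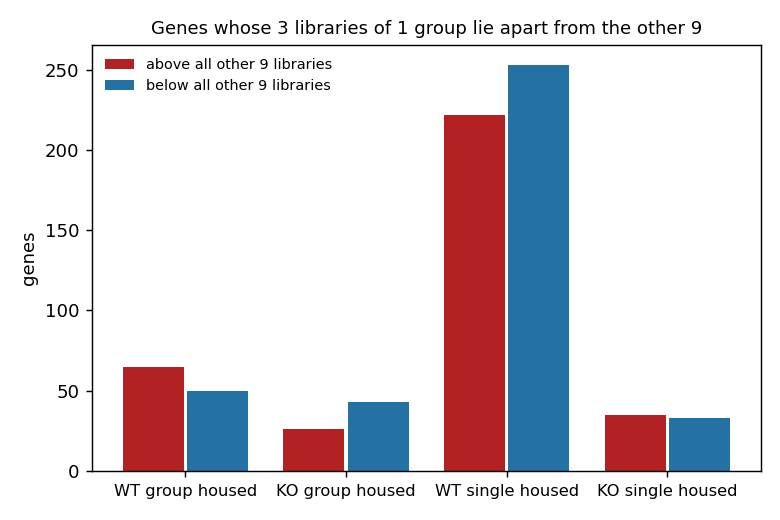
Number of genes (vertical axis) for which all 3 libraries of a group lay above (red) or below (blue) all other 9 libraries, for each of the 4 groups. Single-housed wild type has 222 and 253 genes, and each other group has 65 or fewer in each direction.

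Immediate early genes, which neurons transcribe within minutes of synaptic activity, were examined as a list of 35, of which 30 were tested. For 9 of the 30 (30.0%) the 2 groups did not overlap with higher values in the labelled KO libraries, and for 0 with lower values, against 7.72% and 8.06% of all genes. The median difference was 0.20 where that of all genes was 0.00, 22 members were above 0, and no member passed. The mean level of the list was 2.37, 2.35 and 2.32 in wild type and 2.65, 2.48 and 2.50 in labelled KO, and the groups did not overlap.

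Fos, a subunit of the AP-1 transcription factor, was at 1.89, 1.85 and 1.76 in wild type and at 2.80, 3.12 and 2.73 in the labelled KO libraries (+1.05 ± 0.23, adjusted p = 0.483). Egr1, a zinc finger transcription factor, was at 2.46, 2.31 and 2.36 against 3.39, 3.43 and 3.18 (+0.95 ± 0.21, adjusted p = 0.483). For both, every labelled KO library exceeded every single-housed wild-type library, and the group-housed libraries lay above single-housed wild type, at 2.64 to 4.04 for Fos and 3.13 to 4.47 for Egr1. Dusp6, a phosphatase that restrains ERK signalling, differed by +0.29 ± 0.07 and Rgs2, which limits G protein signalling, by +0.18 ± 0.05, neither past the threshold.

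The groups overlapped for 3 other activity genes, named after their values were seen. Arc, a synaptic regulator of AMPA receptor removal, was at 1.70, 1.88 and 2.30 in wild type and at 3.58, 1.34 and 2.61 in the labelled KO libraries. Nr4a1, an orphan nuclear receptor, was at 2.13, 2.16 and 2.12 against 2.87, 2.12 and 2.03, and Junb at 3.28, 3.11 and 3.36 against 3.98, 3.08 and 3.59. In all 3 genes CAGATC had the highest value of the 6 libraries and CTTGTA or AGTCAA reached down into or below the wild-type range. The list's median was 0.13 without CAGATC and 0.21 without CTTGTA and AGTCAA.

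Neuropeptides and stress hormones, which cortical interneurons release with GABA, had 7 of 23 tested genes without overlap and higher (30.4%) and 0 lower. Of all genes, 7.72% were higher and 8.06% lower in that way. The list's median difference was 0.16, with 0 members past the threshold. Sst, for somatostatin, was at 6.00, 5.72 and 5.72 in wild type and at 6.38, 6.52 and 6.47 in the libraries labelled KO (+0.64 ± 0.12, adjusted p = 0.241). Tac1, for substance P, was at 7.16, 6.93 and 6.90 against 7.30, 7.55 and 7.65 (+0.51 ± 0.10, adjusted p = 0.311). Single-housed wild type was the lowest group for both, below all 9 other libraries. Npy, for neuropeptide Y, was at 7.43, 7.17 and 6.82 against 7.64, 8.50 and 8.47, and Crhbp, which binds corticotropin-releasing hormone, differed by +0.34 ± 0.13. Npy was highest in CTTGTA and AGTCAA, the libraries with high ATF4 target genes.

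The 250 bases before the RefSeq start site (GRCm38.p6) were searched for Ccdc71, Fhdc1, Fos and Sst. Fos and Sst each carry a cAMP response element, the site bound by CREB, and are shown 5′ to 3′ on the strand of the gene, with the element in capitals.
Fos, chr12:85473640-85473889, plus strand: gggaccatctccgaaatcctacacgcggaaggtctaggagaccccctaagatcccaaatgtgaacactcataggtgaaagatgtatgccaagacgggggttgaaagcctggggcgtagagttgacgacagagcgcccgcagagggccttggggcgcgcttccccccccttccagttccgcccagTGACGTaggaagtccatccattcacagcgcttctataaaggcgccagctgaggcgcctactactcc
Sst, chr16:23890845-23891094, minus strand: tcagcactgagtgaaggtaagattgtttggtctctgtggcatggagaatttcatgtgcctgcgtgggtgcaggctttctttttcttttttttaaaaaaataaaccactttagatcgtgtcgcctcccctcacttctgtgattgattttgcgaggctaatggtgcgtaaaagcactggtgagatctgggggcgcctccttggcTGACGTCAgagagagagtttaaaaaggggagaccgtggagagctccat
The motifs searched on both strands were TGACGT, found at bases -66 to -61 of Fos, and its full palindrome TGACGTCA, which contains TGACGT, found at -48 to -41 of Sst. Of 32851 RefSeq windows of this length 6.47% hold the shorter motif and 1.55% the palindrome. The CArG box, the site of serum response factor, was searched as well and is in 1.47% of windows and in none of these 4. The windows of Ccdc71 and Fhdc1 hold none of the motifs. Bases farther upstream were not searched, so each absence holds for these 250 bases only. A match describes the sequence and not binding.

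Chaperones of the endoplasmic reticulum, which fold secreted and membrane proteins, had 9 of 24 tested genes without overlap and higher (37.5%) and 1 lower (4.17%). The shares of all genes were 7.72% and 8.06%. The list's median was 0.22, with no member past the threshold. Manf, an ER stress-induced secreted factor, differed by +0.36 ± 0.11, the co-chaperone Dnajb11 by +0.26 ± 0.08, Dnajc3 by +0.24 ± 0.08 and the disulfide isomerase Pdia6 by +0.34 ± 0.11. The list's mean level was 4.19, 4.28 and 4.20 in wild type and 4.37, 4.60 and 4.39 in the labelled KO libraries, and its median was 0.06 without CTTGTA and AGTCAA. Cytosolic heat shock proteins had 6 of 19 without overlap and higher (31.6%, against 7.72% of all genes) and 0 lower (against 8.06%). Their median was 0.13, which was 0.07 without CTTGTA and AGTCAA. The inducible Hspa1a was at 2.61, 2.56 and 2.56 against 2.76, 3.03 and 3.12 (+0.40 ± 0.11), Hspa1b differed by +0.36 ± 0.12, and Chordc1, an HSP90 co-chaperone, was at 4.45, 4.48 and 4.53 against 4.69, 5.06 and 5.05 (+0.45 ± 0.11). Dnajb4 went the other way at 4.84, 4.87 and 3.37 against 3.15, 3.37 and 3.36 (-1.07 ± 0.32), a gap that rests on TGACCA and ACAGTG and passed without GCCAAT (-1.56, adjusted p = 0.000456).

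The targets of ATF4, the transcription factor of the amino acid response, had 29 of 30 tested genes above 0 and the highest median of any list described here, 0.52. Their mean level was 3.09, 3.14 and 3.09 in single-housed wild type, 3.11 in CAGATC, 3.80 in CTTGTA and 3.94 in AGTCAA. The list's mean was thus raised in 2 of 3 labelled KO libraries, and the median difference was 0.01 without them. For 0 of the 30 genes did the groups not overlap with lower values, against 8.06% of all genes. For 10 of the 30 (33.3%, against 7.72% of all genes) they did not overlap with higher values, so that CAGATC too lay above wild type. Psph, the last enzyme of serine synthesis, is one of them, at 3.02, 3.01 and 3.33 against 3.42, 4.18 and 4.28 (+0.84 ± 0.41, adjusted p = 0.638). Chac1, which degrades glutathione, was at 3.37, 3.63 and 3.28 in wild type and 3.44, 4.82 and 5.01 in the labelled KO libraries, and Phgdh, the enzyme that opens serine synthesis, was at 2.54, 2.33 and 2.44 against 2.21, 4.14 and 4.27. Asns, asparagine synthetase, was at 6.58, 6.48 and 6.35 against 6.38, 7.31 and 7.43, and Atf4 at 7.39, 7.56 and 7.34 against 7.40, 8.28 and 8.23. None had an unadjusted p under 0.05 (Chac1 +0.99 ± 0.59, Phgdh +1.11 ± 0.74, Asns +0.57 ± 0.37, Atf4 +0.54 ± 0.33). In group housing the same genes were high in 2 wild-type libraries (CCGTCC and GTCCGC, list mean 3.84 and 3.87) and in the labelled KO library CGATGT (4.05), against 3.09 to 3.14 in the other 3. High values thus occurred in both genotypes.

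**Figure D3:**
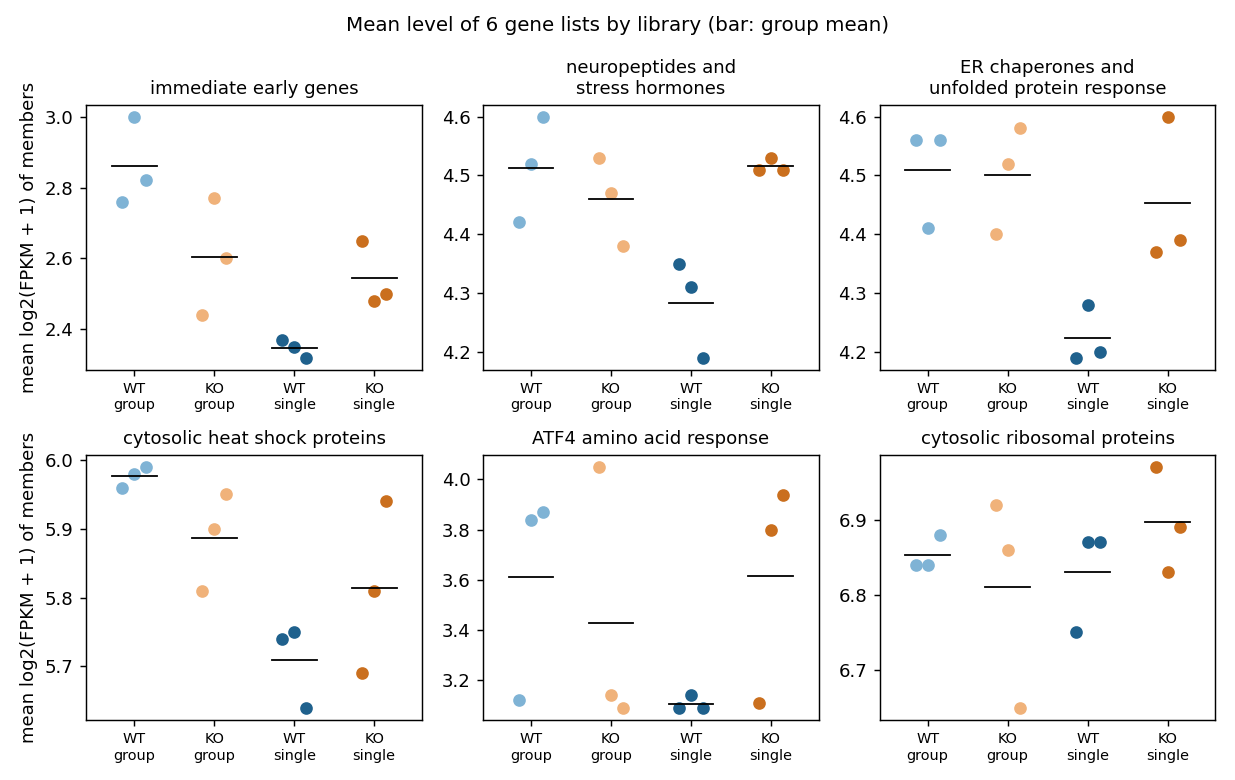
Mean log2(FPKM + 1) over the tested members of 6 gene lists, with 1 point per library, a bar at each group's mean and an axis that does not start at 0. Immediate early genes, neuropeptides, and ER chaperones are lowest in the 3 single-housed wild-type libraries, while ATF4 targets split into a low set (3.09 to 3.14) and a high set (3.80 to 4.05) within 3 of the groups.

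Genes of energy supply and protein turnover had small differences. Of 37 subunits of respiratory complex I 27 were below 0, with a median of -0.05. Of the 37, 0 were without overlap and higher (against 7.72% of all genes) and 4 lower (10.8%, near the 8.06% of all genes). Ndufb10 was at 7.74, 8.02 and 7.97 in wild type and 7.65, 7.24 and 7.61 in the labelled KO libraries (-0.41 ± 0.13), and Ndufs3 at 7.61, 7.57 and 7.53 against 7.39, 7.46 and 7.44 (-0.15 ± 0.05). Complexes II to V had 32 of 41 below 0, a median of -0.04 and 0 genes without overlap in either direction, with Cox4i1 of cytochrome oxidase at -0.18 ± 0.07. Proteasome subunits had 2 of 36 without overlap and higher (5.56%, against 7.72% of all genes) and 5 lower (13.9%, against 8.06%). Among the lower ones were Psma4 (-0.20 ± 0.08) and Psmb6 (-0.12 ± 0.04), while the activator subunit Psme1 was at +0.28 ± 0.09. The direction of both respiratory lists turned without CTTGTA and AGTCAA, to a median of 0.06 for complex I and 0.06 for complexes II to V. The mean level of complex I was 7.54, 7.61 and 7.59 in wild type, 7.62 in CAGATC, 7.41 in CTTGTA and 7.51 in AGTCAA. No member of the 3 lists passed.

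Cytosolic ribosomal proteins, the core of the particle pulled down, had small differences. Of 81, 62 were above 0 and 19 below, and the median was 0.07, with 0 members past the threshold. For 14 the groups did not overlap with higher values (17.3%, against 7.72% of all genes) and for 0 with lower ones (against 8.06%). Rpl23 was at 6.84, 7.05 and 6.88 against 7.17, 7.21 and 7.24 (+0.28 ± 0.10) and Rpl15 at 5.62, 5.71 and 5.71 against 6.22, 5.91 and 5.94 (+0.35 ± 0.16). The tag used for pulldown is on a ribosomal protein. The list's mean was 6.75, 6.87 and 6.87 in wild type and 6.97, 6.83 and 6.89 in the labelled KO libraries, so that the groups overlapped.

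The pentraxins and the AMPA receptor complex, the synaptic partners of Nptx2, had 2 of 21 genes without overlap and higher (9.52%) and 1 lower (4.76%). These shares are near the 7.72% and 8.06% of all genes. The list's median was 0.09, which was -0.04 without CTTGTA and AGTCAA, and none passed the threshold. Nptx1, the other secreted pentraxin, was at 3.33, 3.07 and 3.09 in wild type and 3.19, 3.44 and 3.35 in the libraries labelled KO (+0.16 ± 0.10, adjusted p = 0.695). Nptxr, the membrane-bound pentraxin, was at 5.42, 5.19 and 5.26 against 5.22, 5.36 and 5.23. Gria4, an AMPA receptor subunit typical of these interneurons, was at 5.90, 5.84 and 5.92 against 5.78, 5.80 and 5.82 (-0.09 ± 0.05, adjusted p = 0.663), a small gap without overlap. Dlg4, which encodes the postsynaptic scaffold PSD-95, was at 7.04, 6.93 and 6.78 against 5.80, 6.64 and 6.89 (-0.47 ± 0.22, adjusted p = 0.621), a gap carried mostly by CAGATC. Without CTTGTA and AGTCAA it passed (-1.11, adjusted p = 0.00633) and without CAGATC it was -0.15, and its group-housed values ran from 5.93 to 6.31.

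Genes for GABA handling had 0 of 22 genes without overlap and higher and 1 lower (4.55%), with a median of -0.02. Perineuronal net genes, for the matrix around these cells, had 0 of 8 higher and 2 lower (25.0%). Of all genes, 7.72% were higher and 8.06% lower without overlap. The protease gene Mmp9, which cleaves that matrix, was at 2.62, 2.86 and 2.82 in wild type and 2.12, 2.47 and 2.22 in the libraries labelled KO (-0.50 ± 0.18, adjusted p = 0.60). Parvalbumin interneuron markers had 1 of 26 without overlap in each direction (3.85%) and a median of 0.03. The summed FPKM of these markers was 6640 to 6940 in wild type and 6740 to 7160 in the libraries labelled KO.

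Markers of other interneurons, which include Sst and Npy, had 4 of 11 genes without overlap and higher (36.4%, against 7.72% of all genes) and 0 lower (against 8.06%). The median of these markers was 0.18, and none passed. Their summed FPKM was 492, 425 and 392 in wild type and 540, 730 and 720 in the labelled KO libraries. Much of that gap lay in Npy, at 140 FPKM in wild type and 294 in labelled KO, and in Sst (55.3 and 86.8), each back-transformed from the group's mean log2 value. In group housing the sum was 698 to 825 FPKM in the libraries high in ATF4 target genes and 528 to 605 in the others. Under either housing the sum was thus highest in the libraries high in ATF4 target genes. Whether it reflects more RNA of other interneurons was not tested. Calb1, a calcium buffer, was at 4.81, 4.65 and 4.88 against 4.95, 5.42 and 5.37 (+0.47 ± 0.12, adjusted p = 0.567). It passed without CAGATC (+0.62, adjusted p = 0.0341) and was at +0.17 without CTTGTA and AGTCAA. Cnr1, the cannabinoid receptor of CCK interneurons, differed by +0.29 ± 0.09. Summed levels of the other cell types overlapped between the groups for excitatory neurons (308 to 379 FPKM in wild type, 302 to 373 in labelled KO), astrocytes (202 to 224 and 209 to 229), oligodendrocytes (105 to 125 and 108 to 117) and microglia (51.3 to 57.0 and 55.0 to 64.1). Blood markers overlapped as well (124 to 155 and 96.6 to 276), with 5 of 5 genes above 0, a median of 0.25 and -0.44 without CTTGTA and AGTCAA. Choroid plexus markers did not overlap: with 2 of 8 listed genes tested, their sum was 31.2, 43.4 and 20.2 FPKM in wild type and 46.3, 48.9 and 46.2 in the libraries labelled KO, and the median difference was 0.48. Ttr, for the carrier transthyretin and the more abundant of them, was at 4.40, 5.09 and 3.36 against 5.18, 5.25 and 5.21 (+0.93 ± 0.48, adjusted p = 0.65), while in group housing it was lower without overlap in the libraries labelled KO (-1.45 ± 0.48). The defining genes Slc17a7, Gfap, Mbp and Aif1 of the neuronal and glial types were detected in all 6 libraries, so RNA of other cells was present in both groups. The part of these markers in the results was not tested.

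The genotype difference was then set beside that in group housing, which comes from separate libraries. No gene passed there (limma, lowest adjusted p = 0.0976), and 465 genes (3.66%) had an unadjusted p under 0.05. The sign was the same in both housing conditions for 42.4% of all genes. Spearman rho across genes was -0.173, given as a description, since genes are not independent and all values come from 1 normalization. Of the 1008 genes at an unadjusted p under 0.05 in single housing, 336 (33.3%) kept their sign. Fos was at +1.05 in single housing and -0.65 in group housing, and Egr1 at +0.95 and -0.73. The medians of immediate early genes were 0.20 and -0.20, and of ATF4 targets 0.52 and -0.20. The test of the difference between housing conditions passed for 1 gene, Ccdc71 (-2.10 ± 0.23, adjusted p = 0.0485). An unadjusted p under 0.05 was reached there by 981 genes (7.71%). It did not pass for Fos (+1.70 ± 0.32, adjusted p = 0.471), Egr1 (+1.69 ± 0.29, 0.295) or Fhdc1 (+0.69 ± 0.11, 0.295). Ddx3y was detected in every single-housed library except CAGATC and listed at 0 in every group-housed one. Housing and that split therefore cannot be told apart in these contrasts.

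**Figure D4:**
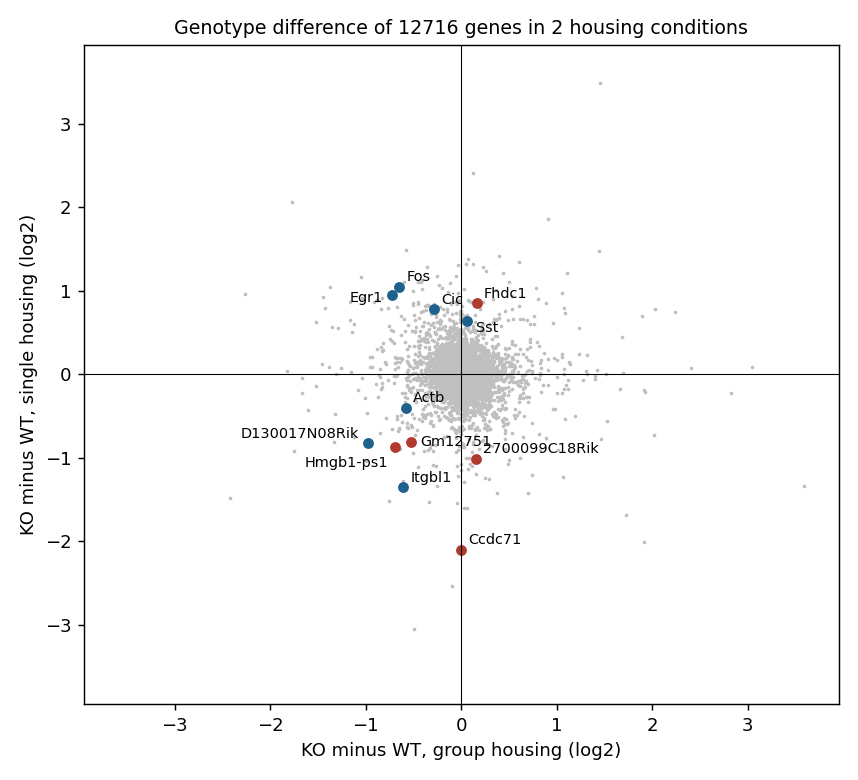
Difference of labelled KO minus wild type (log2) in group housing (horizontal) and single housing (vertical) for 12716 genes in grey, with the 5 genes that passed in single housing in red and 7 others in blue. Ccdc71 lies at 0.00 and -2.10, Fos and Egr1 are above 0 in single and below 0 in group housing, and Gm12751, Hmgb1-ps1 and D130017N08Rik are below 0 in both.

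Few genes had the same order of genotypes without overlap under both housing conditions. Of 12716 genes, the genotype groups did not overlap under either housing in the same direction for 59 and in opposite directions for 77. The same direction was thus no commoner than the opposite one, and a count expected by chance was not computed. The 59 are 2.94% of the 2007 genes without overlap in single housing. They are 6.62% of the 891 in group housing (400 higher, 3.15%, and 491 lower, 3.86%). Of the 59, 15 lie on chromosome 5, or 1.75% of the 858 genes tested there, against 0% to 0.672% of the genes of each other chromosome. Within 5 Mb of Nptx2 lie 6 of the 59, among 87 genes tested there: Eif3b, Radil, Actb, D130017N08Rik, Eif2ak1 and Cpsf4.

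Actb, for cytoplasmic beta-actin, was at 8.66, 8.60 and 8.62 in single-housed wild type and at 7.94, 8.49 and 8.24 in the libraries labelled KO (-0.40 ± 0.12, adjusted p = 0.567), and in group housing at 8.31 to 8.59 against 7.88 to 7.90 (-0.58 ± 0.12). In single housing it passed without CTTGTA and AGTCAA (-0.69, adjusted p = 0.0291). The non-coding gene D130017N08Rik was at 3.53, 3.57 and 3.57 against 2.63, 3.08 and 2.50 (-0.82 ± 0.13, adjusted p = 0.132), and differed by -0.98 ± 0.13 in group housing. It passed in single housing without CTTGTA and AGTCAA (-0.92, adjusted p = 0.0138) and without CTTGTA alone (-0.99, 0.00305). Cpsf4, a subunit of the polyadenylation complex, was at 1.94, 1.87 and 1.93 against 2.76, 2.39 and 2.40 (+0.60 ± 0.17). For these genes all labelled KO libraries lay on the same side of the wild-type libraries of their housing. Eif2ak1, the heme-regulated kinase of eIF2 alpha, differed by -0.20 ± 0.06, Radil by -0.24 ± 0.09 and Eif3b by +0.15 ± 0.04. Of the 87 tested genes within 5 Mb of Nptx2, 10 did not overlap with higher values in single housing (11.5%) and 9 with lower ones (10.3%), with a median of -0.02, against 7.72% and 8.06% of all genes and 7.27% and 6.88% of the 770 genes farther away on chromosome 5.

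**Figure D5:**
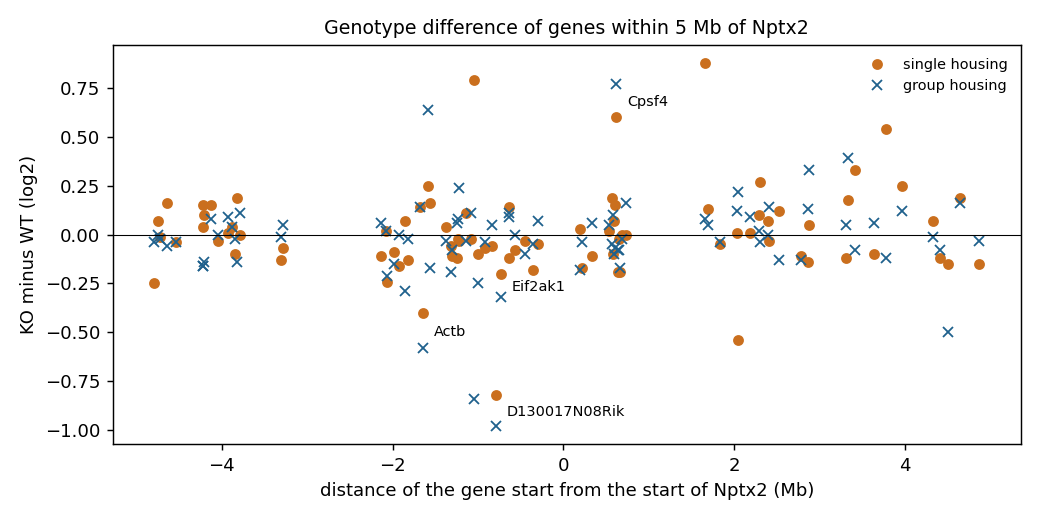
Difference of labelled KO minus wild type (log2) for the 87 tested genes within 5 Mb of Nptx2, by the distance of the gene start from that of Nptx2 (Mb), in single housing (circles) and group housing (crosses). Actb, D130017N08Rik and Eif2ak1 are below 0 and Cpsf4 above 0 in both housing conditions.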

How the data were processed

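Ribosome-associated RNA of 12 libraries was measured in 4 groups of 3, which the series' design text calls biological replicates; p-values measure the spread between these samples. The deposited table holds log2(FPKM + 1) values per gene and library. The submitters' processing notes list the tools HISAT2, StringTie and limma and the build GRCm38, without versions. The log2 values were deposited already quantile normalized, with the same FPKM sum in every library, which removes differences in overall distribution. Counts were not analysed here, so depth is unknown. The p-values, log2 differences and score values (moderated t) of the authors' own comparisons were used as deposited to check the reading of the table. The authors' t values for single housing differed by at most 5e-06 from those of an unfiltered limma fit with no trend. The fit reported here has both a trend and a filter and is not the one checked in this way.

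A mean per group was fitted to all 12 libraries with limma 3.58.1 in R 4.3.3 (moderated with a trend of variance on level, on 8 residual degrees of freedom plus 2.18 from the prior). P-values were adjusted by Benjamini-Hochberg over 12716 genes, with a threshold of 0.05. A difference on this scale understates the change of low genes. The FPKM given for a gene in a group is back-transformed from the group's mean log2 value. Groups do not overlap where every library of 1 lies above every library of the other. Gene IDs were matched to GENCODE M21 (13131 found, 59 not). Pseudogenes were matched to coding transcripts with BLAST 2.17.0. Checked on simulated data for this comparison (12716 genes), the fit found 70.0% of the genes given a log2 change of 0.5, 90.0% at a change of 1 and 98.0% at a change of 2, with 10 false calls among 174. The simulated noise was independent between genes and libraries, with none of the library splits described above. These shares therefore need not hold for the real libraries.

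The genes and lists described were chosen with earlier results of these data known. Named genes were Nptx2, Pvalb, all genes past the threshold, the next 12 per direction by p without predicted, clone or pseudogene names, up to 4 members per list by p, Hmgb1, Polr1d and genes past the threshold of the interaction; any other gene named was chosen after its values were seen. Alternatives were a fit without the trend, the compared groups alone, no filter and a stricter filter (log2 of at least 2), a pseudocount of 0.1, centring on library medians, leaving out each library, and, chosen after seeing the data, leaving out CTTGTA and AGTCAA. No 2 libraries held identical values.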

Additional observations from a re-analysis of the deposited data

Results flagged for a closer look

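Ccdc71 was singled out because its genotype difference in single housing differed from that in group housing by the test of the difference itself: -2.10 (log2, single minus group housing of labelled KO minus wild type; limma adjusted p = 0.0485, SE 0.23). The 3 single-housed libraries labelled KO were at 1.56 to 2.32 and the other 9 at 3.76 to 3.94. The gene passed that test without the filter, with the stricter filter, after centring and without AGTTCC or CTTGTA. It did not pass without the variance trend, with a pseudocount of 0.1 or without any of the other 10 libraries, each left out in turn.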

How the results depend on the processing

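The 5 calls in single housing were the same genes without a variance trend, without the filter and after centring on library medians. The count was 9 when only the compared groups were fitted, where Fhdc1 and Gm12751 were the 2 shared genes, and 3 with the stricter filter. Leaving out 1 library gave 5 to 9 calls. It was 9 without GCCAAT and 9 without CAGATC, each with all 5 genes among them, and 1724 genes then had an unadjusted p under 0.05 without CAGATC against 1008. Without both CTTGTA and AGTCAA, chosen after seeing the data, 27 genes passed, 3 of them shared (Ccdc71, Fhdc1 and Gm12751). The single labelled KO library left then is assumed to vary like the other groups. In group housing the count was 8 on the compared groups alone and 0 to 11 with a library left out (11 without AGTTCC). For the interaction it was 0 without a variance trend, 0 with a pseudocount of 0.1 and 0 to 8 with a library left out (8 without AGTTCC). The causes were not tested.

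Of 1006 pairs of an alternative and a gene whose values or direction the text gives, 976 kept their direction and side of the threshold, 9 lost a call and 13 gained it. Of the 8 reversals, 4 came without CTTGTA and AGTCAA: Pvalb at 0.18, Atf4 at -0.03, Asns at -0.09 and Phgdh at -0.23. With 1 library left out Ddx3y ranged from -1.70 to 0.11, Nr4a1 from -0.06 to 0.36 and Nptxr from -0.07 to 0.04; each turned without CAGATC, and Nptxr also without TGACCA. No paired analysis was possible because the columns carry no replicate numbers. Depth is unknown, and 3 libraries per group limit the precision.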

Other observations

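Some gene groups not described above also had members with separated values in single housing, none past the threshold apart from the formin Fhdc1. The share of all genes without overlap was 7.72% higher and 8.06% lower, and these counts are small. Of 31 voltage-gated ion channel genes 2 did not overlap with higher (6.45%) and 4 with lower values (12.9%) in the libraries labelled KO. Cacna1h, a low-threshold calcium channel, was at 2.27, 2.31 and 2.58 in wild type and 2.08, 1.80 and 1.92 in labelled KO (-0.45 ± 0.13) and Hcn3, a pacemaker channel, at 2.40, 2.35 and 2.49 against 2.59, 2.76 and 2.64 (+0.25 ± 0.08). Of 26 synaptic adhesion genes 3 did not overlap with higher values (11.5%) and 0 with lower ones, with Cbln2, a secreted synapse organizer, at +0.44 ± 0.13. Of 9 formins, the family of Fhdc1, 1 did not overlap with higher (11.1%) and 2 with lower values (22.2%). Fhod3 was at 3.48, 3.45 and 3.53 against 3.31, 3.30 and 3.24 (-0.21 ± 0.05) and Fmn1 at 2.12, 2.02 and 2.26 against 0.32, 1.95 and 0.39. Of 14 microglia and complement genes 2 did not overlap with higher values (14.3%) and 0 with lower ones. Cd68, a lysosomal protein of microglia, was at 1.11, 1.05 and 0.91 against 1.58, 1.41 and 1.64 (+0.52 ± 0.13). Of 33 autophagy and PI3-kinase genes 3 did not overlap with higher (9.09%) and 6 with lower values (18.2%). Pik3r1, the regulatory subunit of PI3-kinase, overlapped, at 3.71, 3.57 and 3.77 against 3.66, 3.15 and 3.15 (-0.36 ± 0.15).

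A few genes, named after their values were seen, varied widely among the 12 libraries in a way that did not follow genotype or housing alone. Acadsb, a mitochondrial acyl-CoA dehydrogenase, was at 4.24, 4.44 and 4.30 in single-housed wild type and 2.71, 2.70 and 2.94 in labelled KO (-1.54 ± 0.42, adjusted p = 0.567), but at 2.83 to 4.49 in group-housed wild type and 2.97 to 4.21 in group-housed labelled KO. Chmp3, an ESCRT-III subunit, was at 5.51, 5.54 and 5.54 against 4.06, 3.98 and 4.67 (-1.29 ± 0.35, adjusted p = 0.567), with group-housed values from 4.10 to 5.48. Rnf6, a ubiquitin ligase whose gene starts 1.66 Mb from that of Nptx2, was at 3.76, 3.90 and 3.91 against 4.72, 4.65 and 4.85 (+0.88 ± 0.23, adjusted p = 0.567), with group-housed values from 3.80 to 4.69. On the compared groups alone Acadsb (adjusted p = 0.013) and Rnf6 (0.0417) passed.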
